A study of Arabidopsis thaliana with 4 samples.

Results

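Cysteine-rich receptor-like kinases (CRKs) of Arabidopsis thaliana were followed in whole seedlings exposed to salt. Members were all genes that a table of TAIR10.1 genes names CRK with a number from 1 to 46, by symbol or synonym, and the calcium-dependent-kinase-related genes of the same abbreviation were left out. Of 46 numbers 42 had a gene, and 28 of these 42 were measured among 20453 genes in all. The tested seedlings were wild-type Col-0 at 14 days after germination, which were kept on paper soaked with NaCl solution (300 mM), on 2 arrays after 2 h and on 2 arrays after 5 h. They were compared on the same arrays with untreated Col-0 seedlings of that age, written 0 h, and all had been grown under 8 h of light and 16 h of dark. RNA of salt-treated seedlings was in the Cy5 channel and RNA of the 0 h seedlings in the Cy3 channel on each of the 4 arrays.

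CRKs are plant membrane proteins in which an extracellular region with the DUF26 cysteine motif is joined through a membrane span to an intracellular serine/threonine kinase. Several are known for roles in pathogen defence, responses to reactive oxygen species, abscisic acid and osmotic stress, and cell death. CRK2 phosphorylates the NADPH oxidase RBOHD and acts in salt tolerance, and CRK36 phosphorylates CRK45, a receptor-like cytosolic kinase also called ARCK1, in abscisic acid and osmotic stress responses. Most CRK genes lie in tandem arrays of close copies on chromosome 4.

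Every value below is a log2 ratio of Cy5 over Cy3, that is of salt over 0 h, for the brightest probe of a gene, and a log2 change is the mean of 2 arrays ± limma's moderated standard error (SE). A call is an adjusted p under 0.05 in limma's test with Benjamini-Hochberg adjustment over all genes, and changes of at least 2-fold are counted beside all calls. Median spot signals were 342 to 372 in Cy5 and 252 to 282 in Cy3, over backgrounds of 52.5 to 54 and 33 to 37.5. No spot was saturated (0 on each array), and between 70.5% and 72.4% of spots were well above background. The number of arrays limits the precision. The 0 h RNA counts as 1 control sample, so the tests against 0 h leave out the variation among untreated seedlings. There the effect of salt cannot be told apart from a dye effect on the gene. Without seedlings held on paper lacking NaCl, salt also cannot be told apart from the transfer or the time of day. In whole seedlings, fewer cells of a type and less RNA per cell cannot be told apart.

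Markers of leaf and root differed between the channels. Of 6 root markers 1 (IRT1) rose and 5 fell at both times, and their summed processed signal in salt over that at 0 h was 0.595 and 0.619 on the 2 h arrays and 0.425 and 0.449 on the 5 h arrays. Of the 6 root markers 1 was not well above background in Cy5 on each 5 h array. Of 6 leaf markers 5 rose and 0 fell at 2 h, and 3 rose and 1 fell at 5 h, with summed ratios of 1.01 and 1.08 at 2 h and 0.919 and 0.936 at 5 h. The part of tissue makeup in the changes of the CRK members was not tested.

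The comparison of 2 h of salt with 0 h asked which CRK transcripts responded early. Of the 28 measured members 21 rose (75%, against 41.4% of all genes tested) and 4 fell (14.3%, against 40.4%). The median log2 change was 0.46 over the members and 0.00074 over all genes. At least 2-fold, 5 members rose (17.9%, against 9.73%) and 2 fell (7.14%, against 2.33%). The 5 that rose at least 2-fold were CRK45, CRK14, CRK11, CRK10 and CRK4, and the 2 that fell were CRK25 and CRK27. Adjusted p-values of the called members lay between 3.11e-10 and 0.000934 (limma). Among these members CRK7, CRK13, CRK23 and CRK31 were well above background in salt only, which is what let them enter the test, so they were bound to count as higher. Over the 24 members seen in the 0 h channel on at least 2 arrays, 17 rose (70.8%, against 40% of 19861 such genes) and 4 fell (16.7%, against 41.5%).

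CRK45 (AT4G11890), the osmotic stress kinase ARCK1, had log2 ratios of 2.96 and 2.89 on the 2 h arrays and 3.67 and 3.62 on the 5 h arrays. Its signals after Feature Extraction's processing were 1288 and 1221 in Cy5 at 2 h, against 98.6 and 102 in Cy3 at 0 h. The same signals were 3378 and 3044 in Cy5 at 5 h, against 131 and 126 in Cy3 at 0 h on those arrays. The salt signal was far above that of the untreated seedlings on all 4 arrays, with no overlap. CRK45 rose by 2.92 ± 0.037 (7.59-fold, limma adjusted p = 3.89e-10) at 2 h and by 3.65 ± 0.037 (12.5-fold, adjusted p = 1.28e-10) at 5 h. The ratio of the processed signals gave larger changes, 3.64 at 2 h and 4.64 at 5 h, so the size depends on the processing. Among the members CRK45 had the largest log2 change at 5 h, and at 2 h it was level with CRK14.

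CRK14 (AT4G23220) had log2 ratios of 2.89 and 2.94 at 2 h and 2.06 and 2.05 at 5 h. It rose by 2.92 ± 0.035 (7.55-fold) at 2 h and by 2.06 ± 0.035 (4.16-fold) at 5 h. Every array lay well above 0 and the 5 h arrays lay below the 2 h arrays. CRK11 (AT4G23190), also called RLK3 and known to respond to oxidative stress and salicylic acid, had log2 ratios of 2.46 and 2.41 at 2 h and 2.41 and 2.40 at 5 h. CRK11 rose by 2.43 ± 0.035 (5.4-fold) at 2 h and by 2.40 ± 0.035 (5.28-fold) at 5 h, and its arrays of the 2 times were level with each other.

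CRK10 (AT4G23180), also called RLK4 and known to be induced by pathogens and salicylic acid, had log2 ratios of 1.93 and 1.85 at 2 h and 0.85 and 0.83 at 5 h. It rose by 1.89 ± 0.037 (3.72-fold) at 2 h and by 0.84 ± 0.037 (1.79-fold) at 5 h. CRK4 (AT3G45860), one of the CRKs whose raised expression is known to trigger cell death in leaves, had log2 ratios of 1.28 and 1.37 at 2 h and of −0.02 and −0.01 at 5 h. CRK4 rose by 1.32 ± 0.037 (2.51-fold) at 2 h, and its change at 5 h was −0.02 ± 0.037 (adjusted p = 0.664). The 2 h arrays of CRK4 stood apart from 0 and its 5 h arrays lay at 0.

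**Figure D1:**
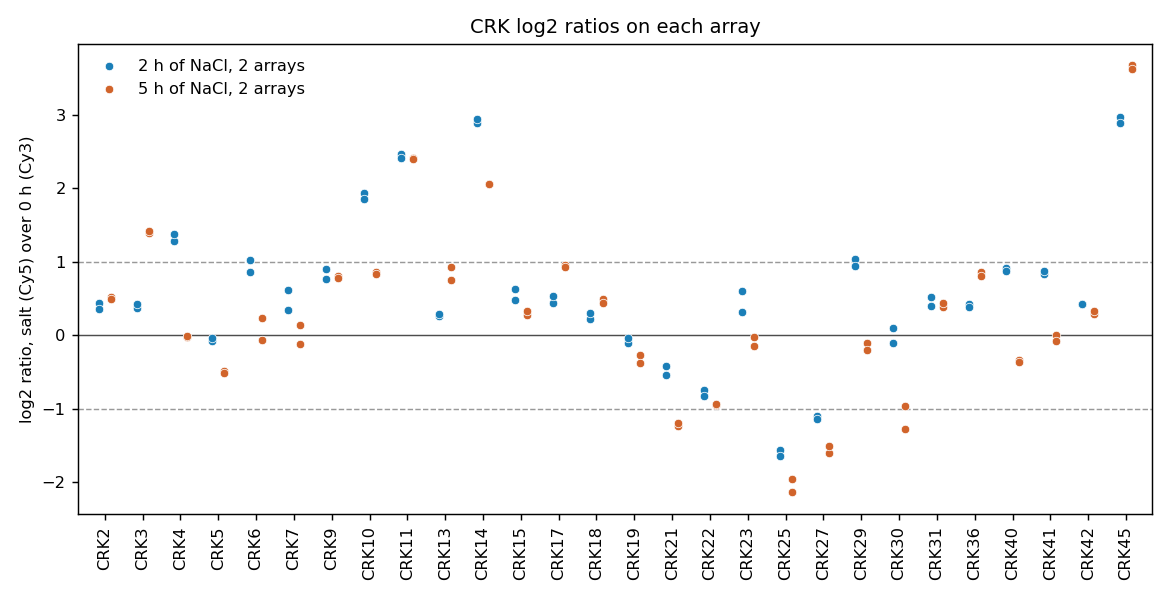
Log2 ratio of salt (Cy5) over 0 h (Cy3) on each array for the 28 measured CRK members, in order of their numbers, with 2 points for 2 h and 2 for 5 h of NaCl and dashed lines at a 2-fold difference. The arrays of a time lie close together, CRK45 reaches 3.67 and CRK25 reaches −2.14.

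The other 16 members that rose at 2 h had log2 changes of 0.26 to 0.99, short of 2-fold in the values reported. For 4 of them, not well above background at 0 h, no upper limit on the fold holds. Feature Extraction's processed ratio put these 4 above 2-fold, and also CRK6 (1.65), CRK36 (1.70) and CRK41 (1.02). It put the rest of the 16 below 2-fold. In the values reported, the highest of the 16 was CRK29 (0.99 ± 0.041), a partner of CRK28 in the immune complex with the flagellin receptor FLS2. CRK6 (0.93 ± 0.07), which acts in responses to extracellular reactive oxygen, CRK40 (0.90 ± 0.035), CRK41 (0.85 ± 0.038) and CRK9 (0.83 ± 0.043) followed. The lowest was CRK18, at 0.26 ± 0.038. For the 4 members not well above background at 0 h only a bound on the fold holds, set on the same arrays against the lowest signal counted as above background or the probe's own, whichever was higher. CRK7, a relative of CRK6 with a role in the same responses, was at least 1.31-fold higher at 2 h than at 0 h, CRK13 at least 1.21-fold, CRK23 at least 1.37-fold and CRK31 at least 1.36-fold.

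The 4 members that fell at 2 h were CRK25, CRK27, CRK22 and CRK21. CRK25 (AT4G05200) had log2 ratios of −1.56 and −1.65 at 2 h and of −2.14 and −1.95 at 5 h. It fell by 1.61 ± 0.05 (3.05-fold lower) at 2 h and by 2.05 ± 0.05 (4.13-fold lower) at 5 h. CRK27 (AT4G21230) had log2 ratios of −1.11 and −1.14 at 2 h and of −1.61 and −1.52 at 5 h. It fell by 1.12 ± 0.038 (2.18-fold lower) at 2 h and by 1.56 ± 0.038 (2.95-fold lower) at 5 h. For CRK25 and CRK27 every array lay below −1. CRK22 (AT4G23300) fell by 0.79 ± 0.037 at 2 h and by 0.94 ± 0.037 at 5 h, with 4 arrays between −0.75 and −0.95. CRK5, CRK19 and CRK30 were not called at 2 h, with changes of −0.06 ± 0.035, −0.07 ± 0.042 and −0.0055 ± 0.077.

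At 5 h against 0 h, 14 of the 28 members rose (50%, against 44.1% of all genes tested) and 9 fell (32.1%, against 43.6%). The median log2 change was 0.19 over the members and 0.0012 over all genes. At least 2-fold, 4 rose (14.3%, against 13.6%) and 4 fell (14.3%, against 7.27%). Those that rose at least 2-fold were CRK45, CRK11, CRK14 and CRK3, and those that fell were CRK25, CRK27, CRK21 and CRK30. The shares of members that rose, at any size and at least 2-fold, were near those of all genes. Adjusted p-values of the called members lay between 1.28e-10 and 0.0085 (limma), and over the 24 members seen at 0 h the counts were 12 higher (50%, against 42.8%) and 9 lower (37.5%, against 44.9%).

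CRK3 (AT1G70530) had log2 ratios of 0.37 and 0.43 at 2 h and of 1.39 and 1.42 at 5 h. It rose by 0.40 ± 0.036 (1.32-fold) at 2 h and by 1.40 ± 0.036 (2.65-fold) at 5 h, and its 5 h arrays stood well above its 2 h arrays. CRK21 (AT4G23290) had log2 ratios of −0.43 and −0.54 at 2 h and of −1.24 and −1.20 at 5 h. It fell by 0.49 ± 0.041 (1.4-fold lower) at 2 h and by 1.22 ± 0.041 (2.33-fold lower) at 5 h, and the arrays of the 2 times did not overlap.

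CRK30 (AT4G11460) had log2 ratios of −0.11 and 0.10 at 2 h and of −0.97 and −1.28 at 5 h. The 2 h arrays lay on either side of 0 and the 5 h arrays lay below them. In Cy5 at 5 h its spots were not well above background on either array, against all 4 Cy3 spots at 0 h that were, so its fall has only a bound. CRK30 was at least 2.03-fold lower at 5 h than at 0 h over both arrays (adjusted p = 2.43e-06). Replicate 1 of 5 h by itself (−0.97) fell short of 2-fold, so without replicate 2 CRK30 did not count as at least 2-fold lower. CRK7 and CRK23 were below background in both channels at 5 h and have no fold there. CRK13, whose overexpression is known to bring cell death and resistance to bacteria, was at least 1.78-fold higher at 5 h than at 0 h, and CRK31 at least 1.33-fold.

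The other members that rose at 5 h did so by 0.30 to 0.94, with CRK17 (0.94 ± 0.038) and CRK10 (0.84 ± 0.037) among the highest. CRK9 rose by 0.80 ± 0.043 at 5 h, close to its value at 2 h. Among those that fell short of 2-fold, CRK40 (−0.35 ± 0.035), CRK19 (−0.33 ± 0.042) and CRK29 (−0.15 ± 0.041) were lower at 5 h than at 0 h. The call of CRK29 at 5 h was lost without replicate 2 of 5 h (−0.11, adjusted p = 0.146, within 0.00241 to 0.146 over all alternatives).

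The comparison of 5 h with 2 h of salt asked how the response moved over time, and a shared control or dye bias drops out of it. Time of day and time since the transfer do not drop out. They cannot be told apart from the time in salt. Of the 28 members 6 were higher at 5 h than at 2 h (21.4%, against 33.5% of all genes tested) and 17 were lower (60.7%, against 38.8%). The median log2 difference was −0.35 over the members and −0.034 over all genes. At least 2-fold, only CRK3 was higher (3.57%, against 4.32%) while CRK4, CRK40, CRK29, CRK30 and CRK10 were lower (17.9%, against 3.43%). Adjusted p-values of the called members lay between 5.81e-07 and 0.0268 (limma). Over the 24 members seen at 0 h, 5 were higher (20.8%, against 33.6%) and 15 lower (62.5%, against 39.1%).

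CRK4 had log2 ratios of −0.02 and −0.01 at 5 h, against 1.28 and 1.37 at 2 h, and was lower at 5 h by 1.34 ± 0.053 on the log2 scale (2.54-fold, adjusted p = 5.81e-07). CRK40 (AT4G04570) had log2 ratios of −0.34 and −0.36 at 5 h, against 0.92 and 0.87 at 2 h. It was lower at 5 h than at 2 h by 1.25 ± 0.049 (2.37-fold, adjusted p = 5.84e-07). Its 2 h arrays were above 0 and its 5 h arrays below 0.

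CRK29 (AT4G21410) had log2 ratios of −0.11 and −0.20 at 5 h, against 1.03 and 0.94 at 2 h. It was lower at 5 h than at 2 h by 1.14 ± 0.058 (2.2-fold, adjusted p = 1.87e-06), with no overlap between the times. CRK10 was lower at 5 h than at 2 h by 1.05 ± 0.053 (2.07-fold, adjusted p = 1.70e-06) and remained above 0 on both 5 h arrays. CRK30, below background in salt at 5 h, was at least 2.11-fold lower at 5 h than at 2 h (adjusted p = 5.24e-05). Here too CRK30 did not count as at least 2-fold lower without replicate 2 of 5 h.

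Of the members that were higher at 2 h than at 0 h, 4 (CRK4, CRK10, CRK29 and CRK40) were then at least 2-fold lower at 5 h than at 2 h, which is 14.3% of the measured members, against 1.64% of all genes. All 4 were seen at 0 h. The 7 members that were higher at 2 h and not higher at 5 h were CRK4, CRK6, CRK7, CRK23, CRK29, CRK40 and CRK41 (25%, against 8.9% of all genes). CRK7 and CRK23 entered the test through their signal at 2 h alone, and over the 24 members seen at 0 h the count was 5 (20.8%, against 8.88%). CRK41, which is known to act on microtubules under salt, had a change of −0.04 ± 0.038 at 5 h (adjusted p = 0.373). It was lower at 5 h than at 2 h by 0.89 ± 0.053. CRK6 had a change of 0.08 ± 0.07 at 5 h (adjusted p = 0.28) and was lower than at 2 h by 0.85 ± 0.099. Without replicate 1 of 5 h, CRK6 was called higher at 5 h than at 0 h (0.23, adjusted p = 0.00785, within 0.00785 to 0.438 over all alternatives). CRK14 was lower at 5 h than at 2 h by 0.86 ± 0.05, and by 1.54 where the arrays were scaled to equal spread. By their calls at 2 h and 5 h, 14 members were higher at both times (50%, against 32.5% of all genes), 12 of them seen at 0 h. Another 2 (CRK29 and CRK40) were higher at 2 h and lower at 5 h (7.14%, against 4.84%), and 5, 3 of them seen at 0 h, were higher at 2 h and not called at 5 h (17.9%, against 4.06%). The 4 that were lower at both times made up 14.3%, against 31% of all genes. CRK5, CRK19 and CRK30 were not called at 2 h and lower at 5 h (10.7%, against 7.73%).

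CRK3 was higher at 5 h than at 2 h by 1.01 ± 0.051 (2.01-fold, adjusted p = 1.81e-06). With so small a margin over 2-fold, CRK3 no longer counted as at least 2-fold without replicate 1 of 2 h or without replicate 2 of 5 h. CRK45 was higher at 5 h than at 2 h by 0.72 ± 0.053 (1.65-fold, adjusted p = 1.11e-05), but the difference was −0.16 where the arrays were scaled to equal spread (adjusted p = 0.0604, within 2.6e-07 to 0.0604 over all alternatives). CRK13 (0.56 ± 0.067), CRK17 (0.46 ± 0.053), CRK36 (0.43 ± 0.051) and CRK18 (0.20 ± 0.053) were also higher at 5 h than at 2 h. CRK13 and CRK36 missed the threshold with Feature Extraction's processed ratio (adjusted p = 0.0766 and 0.129), and their adjusted p-values ran up to 0.0808 and 0.154 over all alternatives from 4.64e-06 and 2.59e-05. CRK18 missed it with the scaled arrays (adjusted p = 0.128) and without replicate 1 of 5 h (0.18, adjusted p = 0.0622), within 0.00552 to 0.128 over all alternatives. CRK25 and CRK22 were lower at 5 h than at 2 h by 0.44 ± 0.071 and 0.16 ± 0.052, but by scaled arrays their differences were 0.05 and 0.08, of the opposite sign and not called. CRK27 was lower at 5 h than at 2 h by 0.44 ± 0.054, and by scaled arrays by 0.08, which was not called (adjusted p = 0.255, within 3.29e-05 to 0.255 over all alternatives).

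The 5 members without a call between 5 h and 2 h were CRK2, CRK9, CRK11, CRK31 and CRK42. CRK9 (AT4G23170) had log2 ratios of 0.81 and 0.78 at 5 h, against 0.90 and 0.76 at 2 h, a difference of −0.04 ± 0.061 (adjusted p = 0.594). CRK11 differed by −0.03 ± 0.05 (adjusted p = 0.594) and CRK42 (AT5G40380) by −0.11 ± 0.049 (adjusted p = 0.0701). Where the arrays were scaled to equal spread, CRK9, CRK11 and CRK42 were each called lower at 5 h than at 2 h, by 0.26, 0.68 and 0.21 (adjusted p = 0.0097, 2.82e-05 and 0.00685, the lowest over all alternatives, in which p ran up to 0.931, 0.965 and 0.35). In contrast, CRK17 (AT4G23250) had log2 ratios of 0.95 and 0.93 at 5 h, against 0.44 and 0.53 at 2 h, so its arrays of the 2 times did not overlap. CRK15 (AT4G23230) had log2 ratios of 0.28 and 0.33 at 5 h, against 0.47 and 0.63 at 2 h, and was lower at 5 h by 0.25 ± 0.065 (adjusted p = 0.009). With Feature Extraction's processed ratio CRK15 was not called (adjusted p = 0.0602, within 0.00222 to 0.0602 over all alternatives).

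**Figure D2:**
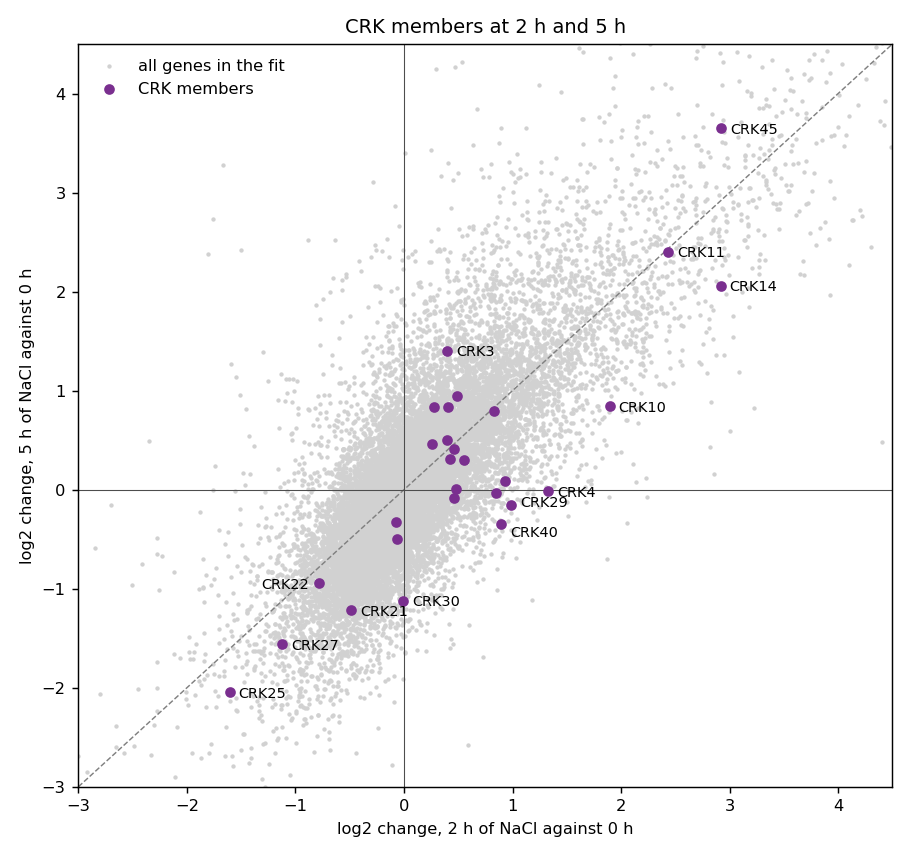
Log2 change at 5 h (vertical axis) against log2 change at 2 h of NaCl (horizontal axis), both against 0 h, for the 28 measured CRK members in purple and all genes in grey, with a dashed line where the 2 times are equal. Genes beyond the axes are not drawn. CRK4, CRK29, CRK40 and CRK10 lie below the line, CRK3 lies above it, and CRK45 lies above it here but not where arrays were scaled to equal spread (a difference of −0.16).

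Members studied in salt, osmotic stress or abscisic acid responses moved in both directions. CRK2 (AT1G70520), the RBOHD-phosphorylating kinase, had log2 ratios of 0.43 and 0.35 at 2 h and of 0.52 and 0.49 at 5 h. It rose by 0.39 ± 0.037 (1.31-fold, adjusted p = 2.63e-05) at 2 h and by 0.50 ± 0.037 (1.42-fold, adjusted p = 3.86e-06) at 5 h, and the difference of 0.11 ± 0.053 between the times was not called (adjusted p = 0.088). Without replicate 1 of 2 h that difference was 0.15 and called (adjusted p = 0.047, within 0.047 to 0.916 over all alternatives). Its arrays lay above 0 throughout and close to each other. Its neighbour by locus number, CRK3, had log2 changes of 0.40 at 2 h and 1.40 at 5 h.

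CRK36 (AT4G04490), the kinase that acts on CRK45, had log2 ratios of 0.42 and 0.38 at 2 h and of 0.86 and 0.81 at 5 h. It rose by 0.40 ± 0.036 (1.32-fold) at 2 h and by 0.83 ± 0.036 (1.78-fold) at 5 h. Its probe was dim, well above background in Cy3 on 2 of the 4 arrays, and its processed ratio gave larger changes of 1.70 at 2 h and 1.99 at 5 h. CRK36 and CRK45 rose at both times, CRK45 by the larger log2 change.

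CRK5 (AT4G23130), known for roles in abscisic acid responses, senescence and cell death, had log2 ratios of −0.08 and −0.04 at 2 h and of −0.49 and −0.51 at 5 h. It fell by 0.50 ± 0.035 (1.41-fold lower, adjusted p = 2.62e-06) at 5 h, and its processed ratio gave −1.34. In Cy5 at 5 h its spot was well above background on 1 of 2 arrays, with processed signals of 45.7 and 43.6 at 5 h against 122 and 105 at 0 h. It was also lower at 5 h than at 2 h, by 0.44 ± 0.049. CRK4, CRK5 and CRK19 share with CRK20 the known link to cell death, and at 2 h only CRK4 of the measured 3 was called.

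The longest tandem array, CRK5 to CRK24 at neighbouring loci on chromosome 4, held 20 members, of which 15 were measured. At 2 h 11 of the 15 rose and 2 fell (median log2 change 0.48), against 41.4% and 40.4% of all genes. At 5 h 8 rose and 4 fell (median 0.30), against 44.1% and 43.6% of all genes. Over the 12 seen at 0 h, which leaves out CRK7, CRK13 and CRK23, 8 rose and 2 fell at 2 h and 7 rose and 4 fell at 5 h. The range within it was −0.79 to 2.92 at 2 h and −1.22 to 2.40 at 5 h. CRK10 and CRK11 lie next to each other by locus number and rose together at 2 h, while at 5 h CRK10 was lower than at 2 h and CRK11 was not called as different. CRK21 and CRK22, near the far end, fell at both times. Probe sequences were not analysed here, so signal shared between close copies is uncertain and was not tested.

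**Figure D3:**
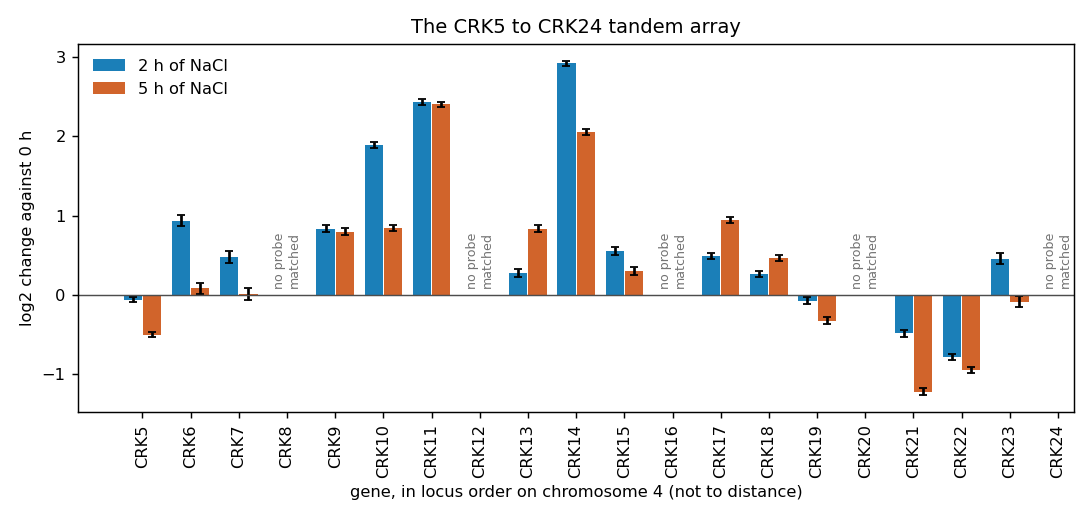
Log2 change against 0 h of the members of the CRK5 to CRK24 array in locus order, blue for 2 h and orange for 5 h of NaCl, as bars from 0 with limma's SE on 2 arrays per time. CRK10, CRK11 and CRK14 stand highest at 2 h, CRK21 and CRK22 lie below 0 at both times, and 5 members had no matched probe.

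Smaller arrays also held members of either direction. In the array of CRK27 to CRK29, CRK27 fell at both times, whereas CRK29 rose at 2 h. In that of CRK36 to CRK40 both measured members rose at 2 h, and at 5 h CRK36 rose and CRK40 fell. In that of CRK30 to CRK34, CRK30 fell at 5 h. CRK31 was called higher at both times there, but it entered the test through its salt signal alone and was bound to count as higher. The 9 members elsewhere in the genome, 7 of them measured, held both the highest and the lowest changes, CRK45 at 2.92 and 3.65 and CRK25 at −1.61 and −2.05.

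The nearest measured genes outside the longest array, chosen as 2 on each side by locus number, also moved in both directions. IQD22 rose by 3.03 ± 0.036 at 2 h and 2.84 ± 0.036 at 5 h, and GSH1, a glutathione synthesis enzyme, by 0.40 ± 0.034 and 0.80 ± 0.034. On the other side AT4G23340 fell by 0.20 ± 0.057 and 0.24 ± 0.057, and PIP1;5, an aquaporin, rose by 0.36 ± 0.037 and 0.40 ± 0.037.

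Several members had more than 1 probe, and 39 of the 47 matched probes were kept, with 9 members represented by several. The 3 kept probes of CRK45 gave log2 changes of 1.76, 2.48 and 2.92 at 2 h and of 2.44, 3.28 and 3.65 at 5 h, all in the same direction. The probes of CRK3, CRK11, CRK14, CRK40 and CRK41 lay close to each other, such as 2.43 and 2.48 for CRK11 at 2 h. Those of CRK6 and CRK18 shared a sign at 2 h and differed in size, with 0.93 and 0.60 for CRK6 and 0.26, 0.11 and 0.12 for CRK18, and at 5 h those of CRK18 gave 0.47, 0.19 and 0.24. CRK42's probes differed in sign, with 0.42 at 2 h and 0.31 at 5 h by its brighter probe and −0.07 and −0.08 by the other, so its rise rests on 1 probe. That other probe was well above background in Cy5 on 1 of the 4 arrays, so its sign is uncertain. The lower probes of CRK6 and CRK45 were also dim, well above background in Cy3 on 0 arrays and on 1 array (1.76 at 2 h for CRK45).

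Sizes depended on how the ratio was made. The ratio of Feature Extraction's processed signals adds no offset. With it, 12 of the 28 members were at least 2-fold higher at 2 h, against 12% of all genes. At 2 h 2 were lower (7.14%, against 7.59%), where the values reported above gave 7.14% against 2.33%. At 5 h, 7 were higher (against 15.6%) and 6 lower (against 15.3%). At 5 h against 2 h, 2 were higher (against 6.02%) and 10 lower (against 6.57%). Over the 24 members seen at 0 h, 8 were at least 2-fold higher at 2 h (against 9.93% of such genes). Of these 24, 5 were higher at 5 h (against 13.6%), and 8 were lower at 5 h than at 2 h (against 6.32%). The median of all genes was −0.14 at 2 h and −0.13 at 5 h by that ratio, and 39% of all calls at 2 h were higher ones, against 50.6% with loess. CRK4 reached 2.69 at 2 h by that ratio, CRK45 reached 3.64 at 2 h and 4.64 at 5 h, and CRK27 −1.82 and −2.69. CRK30 stood at −3.73 at 5 h, where its salt signals were not well above background.

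**Figure D4:**
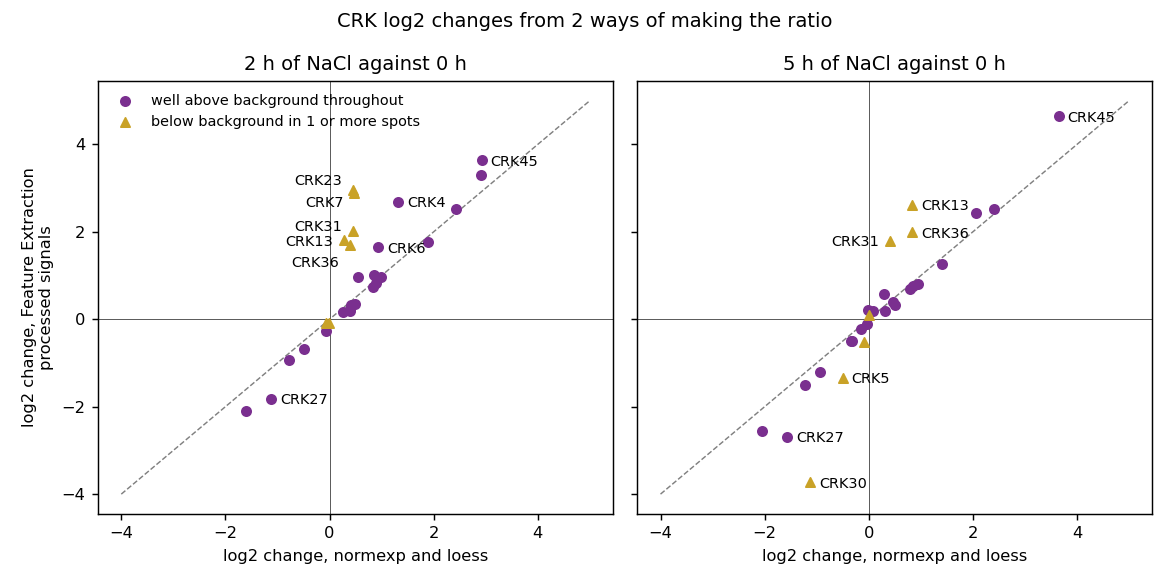
Log2 change from Feature Extraction's processed signals (vertical axis) against that from normexp and loess (horizontal axis) at 2 h and 5 h of NaCl against 0 h, with triangles for members not well above background in 1 or more spots. Most circles lie near the dashed line of equality. At 2 h CRK4, CRK6, CRK27 and CRK45 lie away from it, such as CRK4 at 1.32 and, by processed signals, 2.69. At 5 h CRK27 and CRK45 do so, with CRK45 at 3.65 and 4.64. CRK7 and CRK23 rise to 2.90 and 2.95 at 2 h and CRK30 drops to −3.73 at 5 h.

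Genes of related families and pathways were set beside the members, and their counts stand against the shares of all genes given above (41.4% higher and 40.4% lower at 2 h, 44.1% and 43.6% at 5 h). Of the 8 plasmodesmata-located proteins, which carry the same extracellular domain without a kinase, 2 rose and 5 fell at 2 h and 3 rose and 5 fell at 5 h (median log2 changes −0.13 and −0.23). PDLP1 rose by 1.15 ± 0.042 at 5 h and PDLP7 by 0.36 ± 0.048, and PDLP3 fell by 1.53 ± 0.049. Of 3 calcium-dependent-kinase-related genes, 1 rose and 2 fell at 2 h and 2 rose and 1 fell at 5 h. At 5 h AT2G46700 rose by 0.79 ± 0.044 and AT2G41140 by 0.33 ± 0.038, and AT3G50530 fell by 1.1 ± 0.047. Of 4 wall-associated kinases, which bind pectin, 3 rose and 1 fell at 2 h, and at 5 h 1 rose (WAK4, 0.24 ± 0.037) and 2 fell, among them WAK2 (−1.18 ± 0.04). WAK3 was at −0.05 ± 0.051 at 5 h (adjusted p = 0.412). WAK3 and WAK4 were not well above background at 0 h and entered the test through their salt signal. Their rises at 2 h and that of WAK4 at 5 h thus follow from the filter, and their sizes are not measured.

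Of 21 measured genes of immune receptor complexes and the oxidative burst, in which several CRKs are known to act, 19 rose and 0 fell at 2 h and 18 rose and 2 fell at 5 h (medians 1.01 and 0.58). PEPR1 and LYK5, receptors for a danger peptide and for chitin, rose by 2.00 ± 0.037 and 1.73 ± 0.037 at 5 h. FLS2 rose by 1.01 ± 0.045 at 2 h and fell by 0.40 ± 0.045 at 5 h. RBOHD, the substrate of CRK2, rose by 1.11 ± 0.052 at 2 h and by 0.30 ± 0.052 at 5 h. Of 11 stress WRKY factors 10 rose and 1 fell at 2 h and 8 rose and 1 fell at 5 h (medians 2.31 and 2.48), with WRKY40 and WRKY18 at 5.08 ± 0.037 and 4.89 ± 0.043 and WRKY70 at −0.14 ± 0.04 at 5 h.

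Salicylic acid is known to induce several CRK genes. Of 13 genes of its synthesis and response, 12 rose and 0 fell at 2 h, and 6 rose and 4 fell at 5 h (medians 1.1 and 0.09). The regulator CBP60G and the transporter EDS5 rose by 2.30 ± 0.038 and 1.56 ± 0.037 at 5 h, and EDS1 fell by 0.47 ± 0.044. All 13 were lower at 5 h than at 2 h, as were 17 of the 28 CRK members and 38.8% of all genes. PR1 and, among the WRKY factors, WRKY62 were not well above background at 0 h and entered the test through their salt signal. No test compared the lists, so nothing is particular to the CRK genes from these counts.

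**Figure D5:**
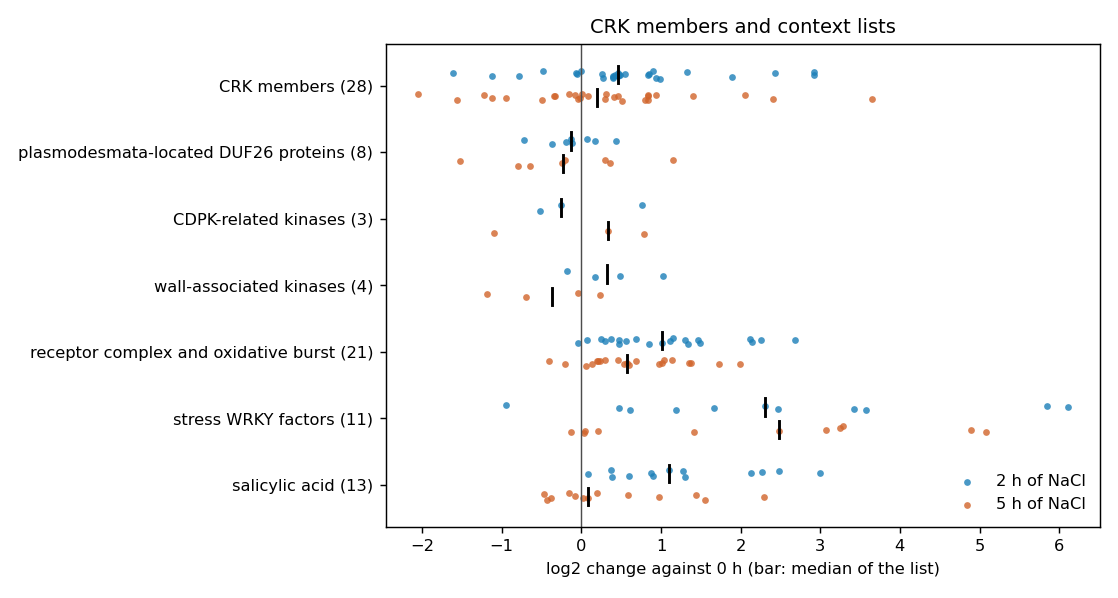
Log2 change against 0 h of each measured gene of the CRK list and of 6 other lists, with blue points for 2 h and orange points for 5 h of NaCl, a black bar at each median and the number of genes in brackets. The medians of the CRK members are 0.46 and 0.19, those of the stress WRKY factors 2.31 and 2.48.

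Of the 42 named members 14 gave no value in the test. The probes of CRK26, CRK32, CRK33, CRK37, CRK38 and CRK39 were too dim, and no probe was matched to CRK1, CRK8, CRK12, CRK16, CRK20, CRK24, CRK28 and CRK34. The filter asked for a signal well above background in a channel on at least 2 arrays. CRK7 and CRK23 lay just inside it, with Cy5 above background on the 2 arrays of 2 h. CRK26 lay just outside, with Cy3 above background on 1 array and mean log2 ratios of −0.36 at 2 h and −0.46 at 5 h. The other dim members had means between −0.08 and 0.23 at 2 h and between −0.14 and 0.08 at 5 h. Of the 28 measured members 21 cleared the background in Cy5 and in Cy3 on each of the 4 arrays.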

How the data were processed

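Per the file headers, each array file gives the scanner's median intensity of a spot and of its background in both dyes. It also gives the processed intensity, which Feature Extraction had background-subtracted and dye-normalized, and the log10 ratio of those values, per the file headers. Version 11.5.1.1 of that program stands in the headers and 9.3.2.1 in the submitters' processing notes. Log2 ratios deposited as a series table have array medians of 0.143, 0.14, 0.0533 and 0.18. Its columns followed each array's ratio with the same direction (r from 0.9972 to 0.9998) and a shift of 0.0858 to 0.118 whose basis is not stated. The marks for spots well above background are a score of 0 or 1 deposited with the files.

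Ratios were computed with limma 3.58.1 in R 4.3.3 from the median signals, with normexp (offset 50) and loess within arrays, control and outlier spots (14 to 19 per array) at weight 0, and no scaling between arrays. Of 43603 probes 34348 matched 1 gene of TAIR10.1, used for names only. A probe was kept if well above background in Cy3 or Cy5 on at least 2 of 4 arrays (20453 genes), and each gene was represented by its brightest probe among those kept. Ratios were tested with lmFit and eBayes, with 1 mean per time (2 residual degrees of freedom), and p-values were adjusted by Benjamini-Hochberg at 0.05. The fit was tested on simulated data. The 0 h RNA is unnumbered and counted as 1 control. The design text gives 2 biological replicates. All 4 arrays lie on 1 slide and share 1 scan, so a slide block was not possible. Deviations of same-numbered arrays from their time means correlated at r = 0.0584 across genes, so the numbers were not taken to pair them. The alternatives tried were another offset, centring, scaling, filter, probe rule and source, each array left out, and a replicate block.

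Full values were given for members at least 2-fold changed and called in any comparison and for CRK2, CRK5, CRK36 and CRK45. Of each context list the 2 genes with the largest and the 1 with the smallest log2 change at 5 h were named. RBOHD, IRT1, PR1, WRKY62 and the neighbours of the longest array were named outside this rule, after their values were seen. The members, lists and tests were chosen with earlier results of these data known. Log2 changes of dim genes are understated by the offset.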

Additional observations from a re-analysis of the deposited data

Results flagged for a closer look

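For 6 members the change against 0 h differed by at least 2-fold between 5 h and 2 h of salt, in a test of the difference itself (limma, adjusted p under 0.05). CRK3 was higher at 5 h than at 2 h, by 1.01 on the log2 scale (3.57% of members, a share near the 4.32% of all genes). It fell short of 2-fold with the arrays scaled to equal spread, with the mean over probes and with the series table. CRK4 (−1.34), CRK40 (−1.25), CRK29 (−1.14), CRK30 (−1.12) and CRK10 (−1.05) were lower at 5 h than at 2 h (17.9%, against 3.43%). CRK40 and CRK29 were below 0 on both 5 h arrays and above 0 on both 2 h arrays. CRK30 rests on salt signals at 5 h that were not well above background, so its value is no measured size. It also fell short of 2-fold without replicate 2 of 5 h.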

How the results depend on the processing

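Counts of members called higher or lower in each comparison stayed within 1.5 times under every alternative that was run, and counts at least 2-fold did not. The members at least 2-fold higher at 2 h numbered 5 of 28 in the values reported (17.9%), against 1990 of all genes (9.73%). They were 12 with Feature Extraction's processed ratio (against 2460, which is 12%) and 9 with an offset of 10 (2360). They were 8 with the arrays scaled to equal spread (2360) and 14 with the deposited series table (2760). CRK7, CRK13, CRK23 and CRK31, which entered through their salt signal alone, are among the 12. At 5 h the 4 (against 2770 of all genes, 13.6%) became 7 with the processed ratio (3190, 15.6%) and 7 with the series table (3450). CRK13 and CRK31 are among the 7 with the processed ratio. At 5 h against 2 h, the 1 member at least 2-fold higher (against 884 of all genes, 4.32%) became 2 with the processed ratio (1230, 6.02%). This count became 0 with scaling (612), with the mean over probes (818) and with the series table (1160). The 5 at least 2-fold lower (against 701 of all genes, 3.43%) became 10 with the processed ratio (1340, 6.57%). They became 9 with an offset of 10 (950) and 10 with the series table (1430). CRK7 and CRK23 are among the 10 with the processed ratio. An offset pulls dim ratios toward 0 by construction, and for the other settings the cause was not tested. Scaling reversed the 5 h against 2 h difference of CRK25 (0.0491), CRK45 (−0.157) and CRK22 (0.075). Among all genes, those at least 2-fold lower numbered 476 at 2 h, 1490 at 5 h and 701 at 5 h against 2 h, and 1550, 3130 and 1340 with the processed ratio. With the series table they were 1210, 2700 and 1430, and with scaling 716 at 2 h. A replicate block, by numbers that were not taken to pair the arrays, left all 84 member values on the same side of the threshold. With it the count of members higher at 2 h was again 21. CRK22 at 5 h against 2 h also missed the threshold with median centring (adjusted p = 0.122), with no filter (0.0518), and without replicate 1 of 2 h or either replicate of 5 h (0.0968 to 0.105), within 0.00537 to 0.27 over all alternatives. CRK19 was called lower at 2 h with the processed ratio only (−0.261, adjusted p = 0.00757, within 0.00757 to 0.959 over all alternatives). A slide block was not run. Signal over background limits CRK5, CRK7, CRK13, CRK23, CRK30, CRK31 and CRK36, whose spots were not all well above background.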
